A study of Arabidopsis thaliana with 27 samples.

Results

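The pad4-1 mutant of Arabidopsis thaliana was compared with its wild type, Col-0, 24 h after the leaves were infiltrated with Psm, which the labels give as Pseudomonas syringae ES4326. The comparison uses the 3 arrays titled pad4-1 Psm 24h and the 3 titled Col-0 Psm 24h, so 6 of the 27 arrays of the study, paired by the set number in the title. It covers the 181 of 576 probes that carry a single gene name, and the other 395 probes have no name here. Plants were 4 weeks old and each sample was a leaf pool of 2 leaves per plant from 3 pots. All 6 samples received the same bacteria and differed in genotype and set only. For the Col-0 arrays of sets 1 and 2 the source name leaves the bacterium blank, and the treatment field gives it. The study also holds the cbp60g,cbp60h double and cbp60g,cbp60h,pad4 triple mutants with Psm at 24 h, and it holds all these genotypes, and cbp60h, after hrcC, which derives from Pseudomonas syringae pv. tomato DC3000.

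PAD4 is a lipase-like protein that acts with its partner EDS1 in leaf immunity and promotes the accumulation of salicylic acid, a hormone that drives defence against bacteria living on living tissue. The pad4-1 allele is known for low phytoalexin accumulation and for allowing more growth of this Pseudomonas strain, which is virulent on Col-0. The hrcC strain lacks a working type III secretion system and so cannot inject effector proteins. It is used to study the response to bacterial surface patterns. CBP60g and CBP60h (also called SARD1) are transcription factors that promote salicylic acid synthesis.

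Values are log2 brightness of a 1-colour array, as deposited, so a difference of 1 is a change of 2-fold if the base is 2, which is read from the values and not given in the sources used here. The 6 arrays had medians over all probes between 4.41 and 4.48. Across the named genes, arrays of Col-0 correlated with each other at 0.949 to 0.969, those of pad4-1 at 0.951 to 0.960, and arrays of different genotype at 0.884 to 0.959 (Pearson's r over genes, a description of the arrays). No named probe reports PAD4, EDS1, or any of the mesophyll, guard cell, epidermis, phloem or root markers listed for the check, so neither the genotype nor the tissue was checked here. In leaf pools, fewer cells of a type and less RNA per cell cannot be told apart.

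Over the 181 named genes, few differences between Psm-infected pad4-1 and Col-0 leaves were called, and these were large beside the measured differences of most other genes. AT4G17470 and AT1G54010, both of hydrolase families, were the genes called higher, by 2.53 and 2.05 on the log2 scale. AT5G39670, which encodes an EF-hand calcium-binding protein, AT4G00700 and AT4G25900 were called lower, with differences of -1.71, -1.04 and -0.98. In all, 5 of the 181 genes (2.76%) were called, 2 higher (1.1%) and 3 lower (1.66%). Called means an adjusted p under 0.05 in limma after Benjamini-Hochberg adjustment over the 181 genes, with 23 arrays of 9 groups sharing 1 estimate of the spread. Without adjustment, 31 genes (17.1%) had a p under 0.05. The count fell to 3 without the pad4-1 array of set 2 or the Col-0 array of set 1 or set 3. The 23-array fit has no term for the set. In simulated data with 45 of the 181 genes changed, it called 21.3% of changes of 0.5. It called 76% of changes of 1 and 95.3% of changes of 2, so a gene not called may still differ. A fit of the 6 arrays paired by set, described below, made 17 calls (9.39%).

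**Figure D1:**
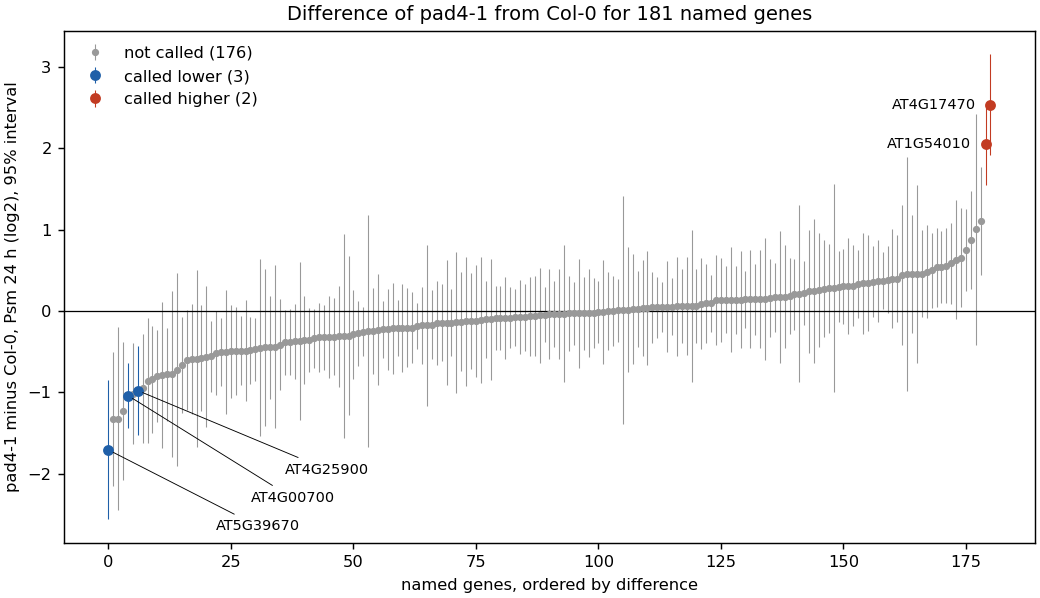
Difference of pad4-1 from Col-0 24 h after Psm (log2, y axis) for the 181 named genes in order of their difference (x axis), with 95% intervals from the limma model as bars. The called genes lie at both ends, AT4G17470 and AT1G54010 at 2.53 and 2.05 and AT5G39670 at -1.71, and most other genes lie close to 0.

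The differences were centred near 0, with a median of -0.04 over the named genes and of -0.02 over all probes. By set, the medians over the named genes were -0.08, -0.05 and -0.02. For 92 genes (50.8%) the difference was within 0.25 of 0. A difference above 0.5 was found for 13 genes (7.18%) and one below -0.5 for 25 genes (13.8%). Of these, 4 genes (2.21%) were above 1 and 6 (3.31%) below -1. In 43 genes (23.8%) the 3 pad4-1 arrays did not overlap the 3 Col-0 arrays, with pad4-1 higher in 16 (8.84%) and lower in 27 (14.9%). All 3 sets had the same sign in 82 genes (45.3%), 34 higher (18.8%) and 48 lower (26.5%).

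AT4G17470 encodes an alpha/beta-hydrolase related to palmitoyl-protein thioesterases. It read 4.19, 5.43 and 4.66 in Col-0 of sets 1 to 3 and 7.66, 6.74 and 7.49 in pad4-1. All pad4-1 arrays were above all Col-0 arrays, and the set difference was smallest in set 2, where Col-0 was highest and pad4-1 lowest. The differences within sets were 3.47, 1.3 and 2.83. The mean difference of 2.53 (SE 0.30, 95% interval 1.91 to 3.15, limma adjusted p = 7.33e-06) exceeded the spread between replicates.

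AT1G54010 (GLL23) encodes a GDSL lipase-like protein. It read 2.87, 3.73 and 3.22 in Col-0 and 5.51, 5.49 and 4.98 in pad4-1. The lowest pad4-1 array stood above the highest Col-0 array by more than the range of either genotype. Within sets pad4-1 was higher by 2.64, 1.76 and 1.76, with a mean of 2.05 (SE 0.24, 95% interval 1.55 to 2.55, limma adjusted p = 7.33e-06).

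The neighbouring genes AT4G24350 and AT4G24340 encode proteins of the phosphorylase superfamily. AT4G24350 read 3.62, 3.97 and 4.27 in Col-0 and 5.0, 5.10 and 5.08 in pad4-1. The pad4-1 arrays were almost level with each other and above every Col-0 array, a mean difference of 1.11 (SE 0.32) that missed the threshold (limma adjusted p = 0.0752). AT4G24340 read 2.94, 3.01 and 3.44 in Col-0 and 3.86, 3.85 and 3.66 in pad4-1, without overlap, a difference of 0.66 (SE 0.29, adjusted p = 0.231). How far the 2 probes could pick up each other's transcript was not tested.

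Of the genes with lower values in pad4-1, AT5G39670 had the largest difference. It read 7.15, 6.28 and 7.19 in Col-0 and 5.85, 4.52 and 5.12 in pad4-1. The genotypes did not overlap, and within each, set 2 had the lowest value. The differences within sets were -1.30, -1.75 and -2.07, with a mean of -1.71 (SE 0.41, 95% interval -2.56 to -0.85, limma adjusted p = 0.0243). The call was lost without the Col-0 array of set 1 or 3 or the pad4-1 array of set 2 or 3, where the difference was -1.57, -1.55, -1.39 and -1.68, and with the 12 Psm arrays alone (adjusted p = 0.102).

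AT4G00700 encodes a C2 domain protein of a family with calcium-dependent lipid binding. It read 4.59, 4.16 and 4.17 in Col-0 and 3.38, 3.10 and 3.33 in pad4-1. Both genotypes were tight and well apart, with differences within sets of -1.21, -1.07 and -0.84. The mean difference of -1.04 (SE 0.19, limma adjusted p = 0.00185) was called whichever of the 6 arrays was left out.

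AT4G25900 encodes a galactose mutarotase-like protein. It read 5.79, 5.31 and 5.46 in Col-0 and 4.69, 4.10 and 4.84 in pad4-1. The groups did not overlap, and the difference was smallest in set 3. The mean difference of -0.98 (SE 0.26, limma adjusted p = 0.0486) lay just inside the threshold. It stayed called in 1 of 6 fits with an array left out, that without the pad4-1 array of set 3. Of 10 other settings, 4 kept the call. It was lost with the set as a block in the 23 arrays (limma adjusted p = 0.0565), quantile normalization (0.0639) and centring on basal genes (0.0516). Leaving out dim genes (0.0522), the 6 arrays without a block (0.0644) and the 12 Psm arrays (0.0757) also lost it.

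**Figure D2:**
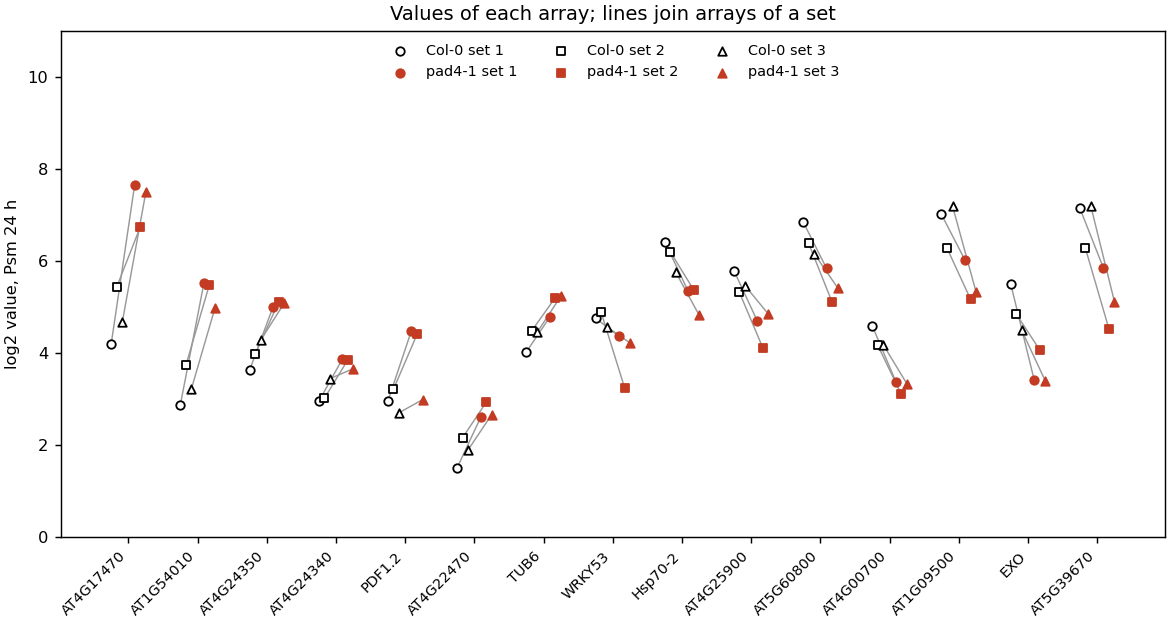
Log2 value of each of the 6 arrays 24 h after Psm (y axis) for 15 genes (x axis), open symbols for Col-0 and filled for pad4-1, with a line joining the arrays of each set. Every line of AT4G17470 and AT1G54010 slopes up to pad4-1 and every line of AT5G39670 and AT4G00700 slopes down, and PDF1.2 of set 3 is close to level at 2.69 and 2.98.

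The labels describe each set as 1 experiment. Over genes, deviations of the pad4-1 and Col-0 arrays of a set from their group means correlated positively, though weakly in set 2. The correlation of these deviations over genes between the pad4-1 and Col-0 arrays of a set was 0.52, 0.15 and 0.38. For arrays of different sets it ran from -0.53 to 0.30, the highest being pad4-1 of set 3 with Col-0 of set 2, above the value within set 2. The 3 deviations of a group sum to 0 for each gene, so values within and between sets are not independent of each other. Fitted to the 6 arrays alone with the set as a block, the comparison gave 17 calls in limma (9.39%), 6 higher (3.31%) and 11 lower (6.08%), in place of 5. This paired fit differs from the 23-array fit both in its arrays and in the block. The 6 arrays without the block gave 7 calls, and the block in the 23 arrays gave 4. In all 17 the 3 sets had the same sign, and in 14 the genotypes did not overlap. With 1 set left out, 1 residual degree of freedom per gene remained, and the paired limma fit made 0 calls without set 1, 21 without set 2 and 18 without set 3, with 24, 47 and 28 genes at an unadjusted p under 0.05. The degrees of freedom that limma lent from all genes were estimated at 2.2 without set 1 and as infinite without set 2 or set 3. Whether the values of set 1 carry the count was not tested.

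The higher genes called in the paired fit and not in the 23-array fit were AT4G24350 (adjusted p = 0.00549), AT4G22470, TUB6 and PDF1.2. AT4G24350 was also called in the 6 arrays without the block (adjusted p = 0.0301) and in the 12 Psm arrays (0.0133). AT4G22470, of the protease inhibitor and lipid transfer protein family, read 1.5, 2.16 and 1.89 in Col-0 and 2.60, 2.92 and 2.66 in pad4-1. All these values are below 3.28, the limit used for dim genes. TUB6, a beta-tubulin, read 4.02, 4.48 and 4.45 in Col-0 and 4.78, 5.2 and 5.23 in pad4-1. For both the pad4-1 arrays were all higher, by means of 0.88 and 0.75 (limma adjusted p = 0.011 and 0.0207 in the paired fit and 0.112 for each in the 23-array fit). The TUB6 differences within sets, 0.76, 0.72 and 0.78, were nearly equal.

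PDF1.2, a plant defensin and a standard reporter of the jasmonate and ethylene branch of defence, read 2.95, 3.21 and 2.69 in Col-0 and 4.48, 4.40 and 2.98 in pad4-1. The groups overlapped, because pad4-1 of set 3 lay below Col-0 of set 2. Within sets pad4-1 was higher by 1.53, 1.19 and 0.29. The difference of 1.00 was called in the paired fit (adjusted p = 0.0301) and not in the 23-array fit (SE 0.68, 95% interval -0.42 to 2.42, limma adjusted p = 0.493).

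Another 8 genes were called lower in the paired fit and not in the 23-array fit. EXO (EXORDIUM), a brassinosteroid-responsive gene of cell expansion, read 5.51, 4.85 and 4.49 in Col-0 and 3.41, 4.06 and 3.39 in pad4-1. AT1G09500, an alcohol dehydrogenase-like gene, read 7.01, 6.28 and 7.20 in Col-0 and 6.02, 5.17 and 5.33 in pad4-1. Neither gene overlapped between genotypes, with mean differences of -1.33 and -1.32 (limma adjusted p = 0.00897 and 0.00533 in the paired fit, 0.0498 for each in the 6 arrays without the block, and 0.0768 and 0.187 in the 23-array fit). The EXO difference was widest in set 1, at -2.10, and that of AT1G09500 in set 3, at -1.87.

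Hsp70-2, a cytosolic chaperone of the HSP70 family, read 6.42, 6.20 and 5.75 in Col-0 and 5.34, 5.37 and 4.81 in pad4-1. AT5G60800, with a heavy-metal-associated domain, read 6.85, 6.39 and 6.16 in Col-0 and 5.84, 5.10 and 5.41 in pad4-1. Both genes were lower in pad4-1 in each set without overlap, by means of -0.95 and -1.01 (paired limma adjusted p = 0.00706 for each, 23-array fit 0.12 and 0.0768). AT3G28510, an AAA-type ATPase gene, read 4.29, 4.24 and 4.26 in Col-0 and 3.75, 3.0 and 3.52 in pad4-1. AT5G08240 read 5.40, 4.54 and 4.93 in Col-0 and 4.35, 4.13 and 4.06 in pad4-1. These 2 genes, again without overlap, differed by -0.84 and -0.78 (paired limma adjusted p = 0.0252 and 0.0301, 23-array fit 0.173 and 0.135).

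The remaining 2 paired calls overlap between genotypes and were chosen after their values were seen. AT3G13950 read 7.80, 6.53 and 6.47 in Col-0 and 6.59, 4.96 and 5.55 in pad4-1. Set 1 was high in both genotypes, and the differences within sets were -1.21, -1.57 and -0.93 (paired limma adjusted p = 0.00474, 23-array fit 0.112). AT2G18210 read 4.57, 3.28 and 4.05 in Col-0 and 3.85, 2.89 and 2.85 in pad4-1, a mean difference of -0.77 (paired limma adjusted p = 0.0412, 23-array fit 0.437).

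Of 80 genes in 13 lists of defence and leaf functions, 10 were measured, and 0 of these 10 were called in the 23-array fit, near the 2.76% over all named genes, while PDF1.2 was called in the paired fit (9.39% of all named genes). The salicylic acid lists were represented by UGT76B1, GRX480 and WRKY53. UGT76B1, which glucosylates salicylic acid and isoleucic acid, read 5.37, 5.95 and 5.38 in Col-0 and 5.84, 5.43 and 5.62 in pad4-1. GRX480, a glutaredoxin that salicylic acid induces, read 8.70, 8.26 and 8.28 in Col-0 and 8.70, 8.45 and 8.52 in pad4-1. For both genes the groups overlapped, and the 95% intervals of the difference ran from -0.87 to 0.99 and from -0.45 to 0.73.

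WRKY53, a transcription factor of defence and senescence, read 4.76, 4.89 and 4.57 in Col-0 and 4.36, 3.24 and 4.22 in pad4-1. The groups did not overlap, but the pad4-1 array of set 2 stood far below the other two. The difference was -0.80 (SE 0.27, limma adjusted p = 0.12) and -0.45 without that array. WRKY22 and WRKY29, which act downstream of pattern recognition, differed by -0.22 (95% interval -0.72 to 0.27) and -0.20 (-0.69 to 0.28).

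The other members of the lists had intervals on both sides of 0. AT2G04400, of tryptophan synthesis, the pathway that feeds camalexin, differed by -0.23 (95% interval -0.91 to 0.46). BIP1, a chaperone of the endoplasmic reticulum, differed by 0.18 (-0.46 to 0.81). COR47, a dehydrin of cold and abscisic acid responses, differed by 0.24 (-0.51 to 1.00). AT5G60390, an elongation factor gene used as a housekeeping gene, differed by 0.25 (-0.64 to 1.13).

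Genes were also grouped by family, with the groups written after values had been seen, so that their counts are descriptions. Over all 181 named genes, 102 had a mean below 0 and 79 above, 14.9% did not overlap with pad4-1 lower and 8.84% with pad4-1 higher, and 2.76% were called. All 5 EF-hand and calmodulin-like genes had lower means in pad4-1, with a median difference of -0.50 against -0.04 over all named genes, and 1 of the 5, AT5G39670, was called. AT4G27280 of this family differed by -1.21, 0.00 and -1.15 in sets 1 to 3, and AT2G41410, without overlap, by -0.63, -0.47 and -0.41. CML42 was closest to 0, at -0.14 (SE 0.41). The 4 WRKY genes had negative differences with a median of -0.36, none called, and 3 of them did not overlap between genotypes. WRKY6, the third of these beside WRKY53 and WRKY29, differed by -0.98, -0.47 and -0.05 within sets.

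Of 7 UDP-glycosyltransferase genes, 6 had positive differences, with a median of 0.22 and none called. UGT84A3, which glucosylates hydroxycinnamic acids, read 3.53, 4.00 and 4.10 in Col-0 and 4.18, 4.52 and 4.55 in pad4-1. UGT85A2 read 3.02, 2.58 and 2.86 in Col-0 and 3.10, 3.16 and 3.35 in pad4-1. Neither overlapped, with means of 0.54 (SE 0.23, limma adjusted p = 0.223) and 0.38 (SE 0.20, adjusted p = 0.333). The 6 heat shock and FKBP genes had a median of -0.13, and Hsp70-2 alone among them did not overlap. Its relative AT3G09440, also of the HSP70 family, differed by -0.14 (SE 0.36). The 3 chitinases, 3 class III peroxidases and 3 histone H3 genes had medians of -0.03, 0.09 and 0.17, with none called.

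**Figure D3:**
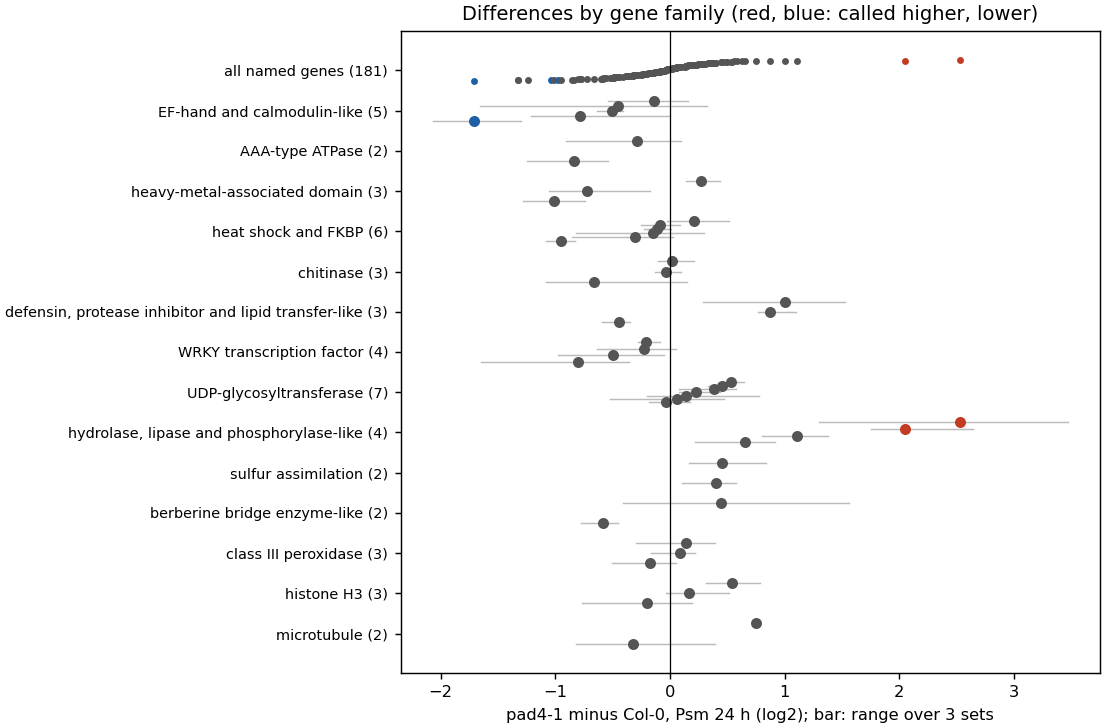
Difference of pad4-1 from Col-0 24 h after Psm (log2, x axis) for the genes of each family (y axis, number of genes in brackets), points for the mean and bars for the range over the 3 sets, with all 181 named genes in the top row as means only. The 5 EF-hand and calmodulin-like genes lie left of 0, and the 4 hydrolase, lipase and phosphorylase-like genes lie right of it, a group that was put together because of its values.

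Among the other genes without overlap and not called in either fit, those with higher values in pad4-1 included several of transport and metabolism. AT4G38250, an amino acid transporter-like gene, read 4.57, 4.77 and 4.57 in Col-0 and 5.11, 5.32 and 5.38 in pad4-1. AT1G62660, a vacuolar invertase gene, read 4.45, 5.0 and 4.85 in Col-0 and 5.05, 5.48 and 5.52 in pad4-1. AT2G26690, of the nitrate and peptide transporter family, read 6.18, 6.12 and 6.40 in Col-0 and 6.64, 6.78 and 6.79 in pad4-1. The means differed by 0.63, 0.58 and 0.50, with the same sign in every set and limma adjusted p of 0.364, 0.187 and 0.226. APS3, an ATP sulfurylase of sulfate assimilation, AT2G01970, an endomembrane protein, and the histone H3 gene AT1G09200 differed by 0.40, 0.56 and 0.54.

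Those with lower values included AT1G26380, a berberine bridge enzyme-like oxidase of indolic defence compounds, which read 3.76, 3.63 and 3.51 in Col-0 and 2.98, 3.12 and 3.06 in pad4-1. The RING finger genes AT2G42360 and AT3G48070 read 4.78, 4.53 and 4.96 and 5.57, 5.35 and 5.47 in Col-0, against 4.26, 4.21 and 4.13 and 4.95, 4.86 and 5.07 in pad4-1. AT3G54150, a methyltransferase-like gene, differed by -0.60. The first 3 differed by -0.58, -0.56 and -0.51, with limma adjusted p of 0.36, 0.173 and 0.187, so these differences did not pass the test although each had all Col-0 arrays above all pad4-1 arrays.

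After hrcC at 9 h, 0 of 181 genes (0%) were called between pad4-1 and Col-0 in limma, with 2 arrays of each genotype, and 10 genes (5.52%) had an unadjusted p under 0.05. AT4G17470 read 3.64 and 3.03 in Col-0 and 3.82 and 3.59 in pad4-1, a difference of 0.37 (SE 0.36). The difference was larger after Psm by 2.16 (SE 0.47, limma adjusted p = 0.0364), and this was the 1 gene (0.552%) called in that test, in which 8 genes (4.42%) had an unadjusted p under 0.05. The treatments differ in both strain and hour, whose parts cannot be told apart. The call was lost after each of 3 rescalings (adjusted p = 0.0683, 0.136 and 0.0632), with all probes in the fit (0.116) and with a trend in the prior (0.05). It held in 3 of 10 fits with 1 array left out, those without the Psm array of set 2 of either genotype or without the Col-0 hrcC array of set 2.

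AT1G54010 read 4.23 and 4.16 in Col-0 and 4.95 and 4.67 in pad4-1 after hrcC, a difference of 0.62 (SE 0.29). The difference after Psm was larger by 1.43 (SE 0.38), which missed the threshold (limma adjusted p = 0.112). Col-0 itself was lower with Psm, at 2.87, 3.73 and 3.22, than in both hrcC arrays. AT5G39670 read 5.0 and 4.67 in Col-0 and 3.5 and 3.81 in pad4-1 after hrcC, a difference of -1.18 (SE 0.50). Hsp70-2, AT5G60800 and AT4G00700 had hrcC differences of -1.18, -1.12 and -0.74, of the same sign as those after Psm and not called.

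In set 3, hrcC leaves were taken at 24 h, with 1 array of each genotype and so no replicate. AT4G17470 read 3.75 in Col-0 and 3.53 in pad4-1 there, and AT1G54010 read 4.61 and 4.46, so neither was higher in pad4-1. In the same set and at the same time with Psm the differences were 2.83 and 1.76. AT4G24350 differed by 1.3 and AT4G24340 by 1.34 in the hrcC pair, and PDF1.2 read 4.05 in Col-0 and 7.59 in pad4-1, against 2.69 and 2.98 with Psm. UGT76B1, GRX480 and BIP1 were lower in that pad4-1 array, by -1.03, -0.81 and -1.36.

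**Figure D4:**
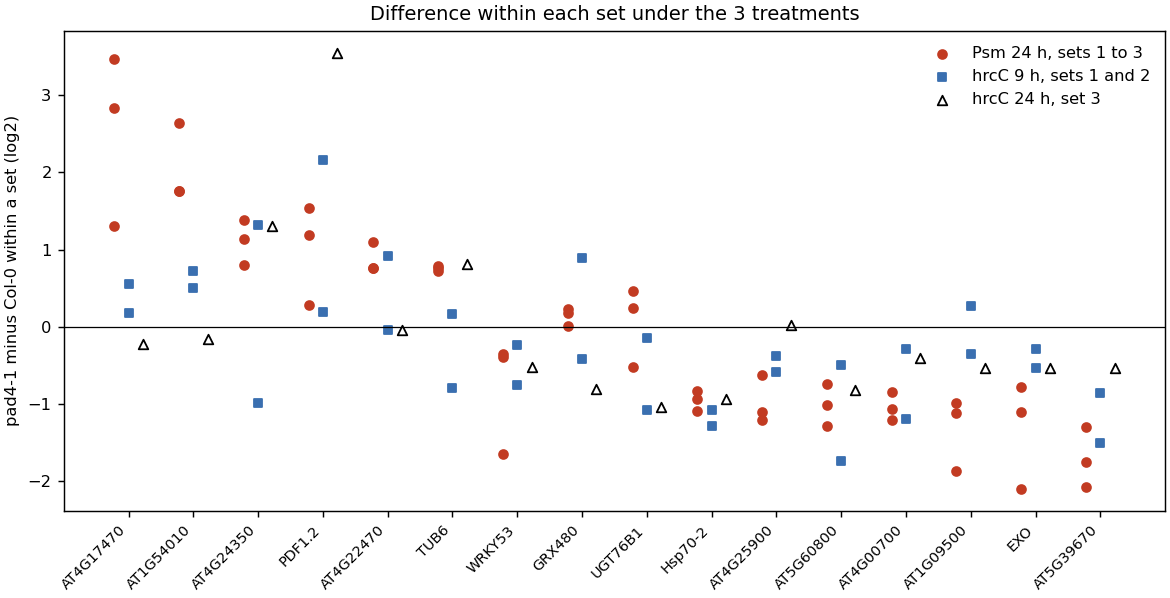
Difference of pad4-1 from Col-0 within each set (log2, y axis) for 16 genes (x axis), circles for Psm at 24 h in sets 1 to 3, squares for hrcC at 9 h in sets 1 and 2 and triangles for hrcC at 24 h in set 3. For AT4G17470 the 3 Psm points lie above all hrcC points, and for Hsp70-2 the points of the 3 treatments lie together below 0.

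The pad4-1 arrays were then tested against the other mutants with Psm. The comparisons of each mutant with Col-0 share the Col-0 arrays, so the mutants were set against each other directly. Against the cbp60g,cbp60h double, 2 genes (1.1%) were called, both lower in pad4-1, and 22 (12.2%) had an unadjusted p under 0.05. AT4G24340 read 5.42, 4.83 and 5.11 in the double mutant, all above the pad4-1 arrays, which differed from it by -1.33 (SE 0.29, limma adjusted p = 0.0212). AT2G14290 read 3.68, 3.71 and 3.28 in the double mutant and 2.63, 2.19 and 2.60 in pad4-1, a difference of -1.08 (SE 0.23, limma adjusted p = 0.0212). Both calls were lost without the double mutant array of set 1 or 2, without the pad4-1 array of set 2 or 3, and after median centring. That of AT2G14290 was also lost after quantile normalization, at a difference of -0.78 (limma adjusted p = 0.058). Its pad4-1 arrays were all below 3.28, the limit used for dim genes, and the dim filter removes the gene.

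AT4G17470, AT1G54010, AT4G00700 and AT5G39670 were called between pad4-1 and Col-0, and their direct differences from the double mutant were small or uncertain. AT4G25900, the other gene called there, was not called against the double mutant. AT4G17470 differed by -0.14 (95% interval -0.76 to 0.48), AT1G54010 by 0.22 (-0.28 to 0.72) and AT4G00700 by 0.04 (-0.36 to 0.44). AT5G39670 read 7.36, 5.66 and 5.40 in the double mutant, a spread wider than in pad4-1, and pad4-1 differed from it by -0.98 (limma adjusted p = 0.278). WRKY53 read 3.34, 2.98 and 3.07 in the double mutant, below pad4-1 of sets 1 and 3, a difference of 0.81 (adjusted p = 0.194).

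Against the cbp60g,cbp60h,pad4 triple, 39 genes (21.5%) were called, 28 higher in pad4-1 (15.5%) and 11 lower (6.08%). This split depends on the scaling, with 20 higher and 16 lower after quantile normalization and 23 and 22 after median centring. The largest differences with pad4-1 higher were those of AT1G76960 (2.54, SE 0.47), UGT76B1 (2.42, SE 0.44), AT3G13950 (2.17), AT5G52760 (2.1), another heavy-metal-associated domain gene, and AT5G39670 (2.06, SE 0.41), each called in limma. UGT76B1 read 2.77, 3.83 and 3.02 in the triple mutant, below every pad4-1 and Col-0 array. AT5G39670 read 3.03, 3.06 and 3.21 there, so that pad4-1 lay between Col-0 and the triple mutant.

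The genes furthest below the triple mutant were AT1G54010 (-1.51, SE 0.24, limma adjusted p = 0.000456), AT4G24350 (-1.33), AT4G17470 (-1.16, SE 0.30, adjusted p = 0.0069), AT4G24340 (-1.16) and APS3 (-1.04). AT4G17470 read 8.74, 8.44 and 8.20 in the triple mutant and AT1G54010 read 6.84, 7.04 and 6.64. Each of these arrays was above the highest pad4-1 array of its gene, so the order of the means was Col-0, pad4-1 and triple mutant for both, with both steps called.

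**Figure D5:**
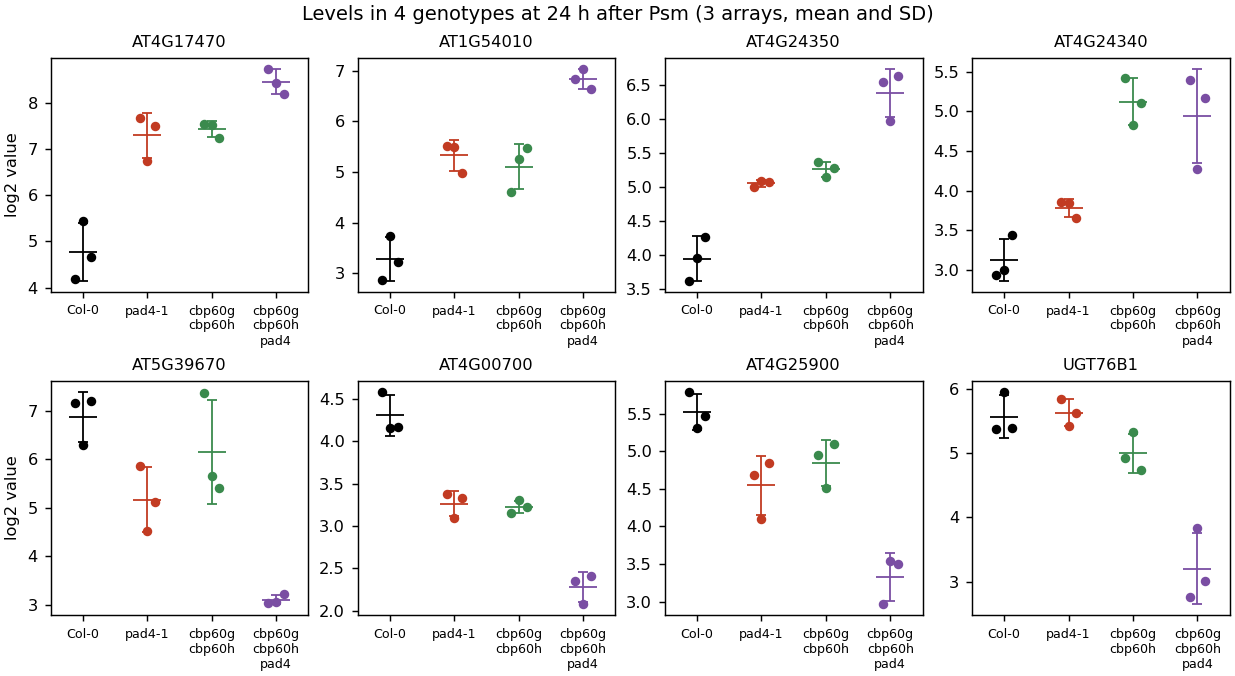
Log2 value 24 h after Psm (y axis, scaled per gene) of 8 genes in Col-0, pad4-1, the cbp60g,cbp60h double and the cbp60g,cbp60h,pad4 triple mutant (x axis), points for the 3 arrays and lines for mean and SD. AT4G17470, AT1G54010 and AT4G00700 have pad4-1 and the double mutant side by side between Col-0 and the triple mutant, while UGT76B1 has pad4-1 beside Col-0.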

How the data were processed

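Leaf RNA of 27 samples was amplified and labelled with Alexa555, per the labels. The deposited value table was used unchanged and read as log2 intensities, from 0.66 to 11.0 on the 6 arrays. Not given in the sources used here are the log base and how the authors scanned, corrected and normalized the arrays. Values shared between arrays make up 15.8%, and 28.5% to 42.9% of values on an array are tied with another probe. Names come from the platform annotation, and 180 of the 181 matched RefSeq (TAIR10.1) by gene ID and 1 by locus.

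A group-means model was fitted to 23 arrays in limma 3.58.1 (R 4.3.3; lmFit, eBayes, two-sided tests, Benjamini-Hochberg over 181 genes) and checked on simulated data. The sets pair the samples, since the labels make each an experiment. The deviations of the 3 pairs correlate at 0.52, 0.15 and 0.38. Those of pad4-1 of set 3 and Col-0 of set 2 correlate at 0.30, so the deviations do not settle the pairing of set 2. The number of arrays limits the precision, and an exact permutation test of 3 against 3 arrays cannot go below p = 0.1. Replicates are separate pools of leaves. The p-values of the 23-array fit rest on the spread between replicates within all 9 groups, not within pad4-1 and Col-0 with Psm alone.

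Named are the called genes, up to 12 uncalled genes each way with the largest differences without overlap, the measured list members and up to 5 called genes each way of the other tests. Members and lists were chosen with earlier results of these data known. No sequences were used here, and gene positions were used only to find neighbouring genes.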

Additional observations from a re-analysis of the deposited data

Results flagged for a closer look

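AT4G17470 stands out because its difference between pad4-1 and Col-0 was itself different between treatments, larger after Psm at 24 h than after hrcC at 9 h by 2.16 (SE 0.47, limma adjusted p = 0.0364). The call was lost after quantile normalization (adjusted p = 0.0683), median centring (0.136), centring on basal genes (0.0632), with all probes (0.116) and with a trend in the prior (0.05), and in 7 of 10 fits with 1 array left out. The difference after Psm was positive in 3 of 3 sets. Strain and time differ together in this test and cannot be told apart by it. In set 3, where hrcC leaves were also taken at 24 h, AT4G17470 was not higher in pad4-1 after hrcC. That pair has 1 array of each genotype and so no replicate.

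The 395 probes without a gene name entered the comparisons above only through fits and medians over all probes. In the fit of all 576 probes, 19 of them (4.81%) were called between pad4-1 and Col-0 after Psm, 5 higher and 14 lower in pad4-1. The genotypes did not overlap in 92 of them (23.3%), 38 higher and 54 lower, a share near the 23.8% of the named genes. The 2 called unnamed probes with the largest rise were probe_518 at 2.95 and probe_415 at 2.16, and those with the largest fall were probe_332 at -2.17 and probe_454 at -2.11. Col-0 of set 1 was low for both risers, so that this array widens their mean differences. It read 4.46 against 6.27 and 6.43 in sets 2 and 3 for probe_518, and 5.32 against 7.62 and 7.58 for probe_415. Every pad4-1 array was above every Col-0 array for both. Groups had 3 arrays or fewer, so no single array was tested as an outlier.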

How the results depend on the processing

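The comparison of pad4-1 with Col-0 after Psm gave 5 calls, and between 4 and 7 under the set as a replicate block in all 23 arrays (4), quantile normalization (6), median centring (7, 2 higher and 5 lower), centring on 14 basal genes (4), all probes (5), a trend in the prior (5), the 6 arrays without a block (7) and the 12 Psm arrays (4). It gave 3 without dim genes, where the filter removed AT4G00700 and AT4G25900 lost its call (limma adjusted p = 0.0522). Of the uncalled genes read above, the filter also removes AT4G22470, AT3G28510, UGT85A2, AT1G26380, AT3G54150, WRKY22 and WRKY29. The comparison gave 17 calls with the 6 arrays and a replicate block, and 3 to 5 with 1 array left out. The paired fit was not run without dim genes. The paired fit made 13 to 19 calls when rescaled or run on all probes and 0 to 21 with 1 set left out, settings chosen after seeing the data. The test of the treatment difference (1 call) gave 0 after quantile normalization, median centring, centring on basal genes, with all probes and with the trend, and 0 to 2 with 1 array left out. With these 5 settings 7 or 8 genes had an unadjusted p under 0.05. Against the double mutant the count of 2 became 3 with the replicate block, 1 after quantile normalization and without dim genes, 0 after median centring (24 at an unadjusted p under 0.05) and 4 with all probes, and lay between 0 and 5 with 1 array left out. Against the triple mutant it was 46 with the replicate block and 29 to 47 with 1 array left out. After hrcC it was 0 under every setting run, with 8 to 16 at an unadjusted p under 0.05. None of the 5 genes called between pad4-1 and Col-0 after Psm changed sign under a setting run on them. Centring on basal genes that the annotation marks was not run, since none are marked, and the list of 14 was chosen after seeing the data.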
